A study of Arabidopsis thaliana with 4 samples.

Results

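The UGT and GST genes examined here encode family 1 glycosyltransferases and glutathione transferases of Arabidopsis roots. They were the probe sets that name 1 gene whose symbol is UGT, a number, a letter and a number, or GST with the class letter U, F, L, T or Z and a number. Genes of the chromosome 1 stretch from AT1G20910 to AT1G27530 were left out by the same rule. This gave 56 genes, 42 UGT and 14 GST, each with 1 probe set, out of 13356 genes that a probe set names alone. Of the GST genes, 11 were of class tau (U), 2 of class phi (F) and 1 of class lambda (L), and no class theta or zeta gene had a named probe set.

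The series compared whole roots of the Col-0 wild type (2 samples) with roots of the nlp7-1 mutant in Col-0 (2 samples). NLP7 is a transcription factor of nitrate signalling. Seedlings had an age of 5 dai and grew untreated at 22 °C with 16 h of light per day on agar with 1x MS salts, and each sample pooled about 60 roots cut off where root meets hypocotyl. What lesion nlp7-1 carries is not stated in the labels, and no probe set was named for NLP7, so the genotype labels could not be checked on the mutated gene. The replicates are called biological with no further detail, and the small number of arrays, 2 for each genotype, sets the precision of all values.

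UGT enzymes transfer a sugar from a UDP-sugar to a small acceptor such as a hormone, a phenylpropanoid, a flavonoid or a foreign compound, which changes its solubility, activity and place in the cell. GST enzymes of the tau and phi classes join glutathione to electrophilic compounds, and conjugates of both kinds can be moved into the vacuole. Lambda GSTs carry a cysteine in place of the usual catalytic serine and act in thiol transfer. In roots both families are known for responses to herbicides, oxidised lipids and pathogens, and several UGTs set the pool of free auxin, cytokinin, abscisic acid or salicylic acid.

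Values are MAS5 signals, a linear hybridisation intensity per probe set. A filter on low signals let a probe set into the test when its mean log2 signal reached the 40th percentile of these means, which corresponds to 59.4. Of the 56 genes, 37 passed this filter (25 of 42 UGT and 12 of 14 GST), and 19 lay below it. Median signals of the 4 arrays ran from 97.5 to 100.8. Correlations across the 13648 kept probe sets were 0.978 between the wild-type samples, 0.986 between the mutant samples and 0.961 to 0.977 between genotypes. Of 13 root markers, 2 had a named probe set, and both had signals above the filter level in each sample: PYK10, a beta-glucosidase of root ER bodies, and EXPA7, a root hair expansin. Of 13 shoot markers, 3 had one (RCA, LHCB4.1 and LHCB4.2, genes of photosynthesis). Their summed signal was 813 and 1009 in wild type against 664 and 793 in nlp7-1. LHCB4.1 had a log2 change of -0.64 ± 0.21 (SE; limma adjusted p = 0.265). LHCB4.2 had -0.39 ± 0.25 and RCA -0.02 ± 0.11 (SE), and in both the samples of the genotypes overlapped. The part of these transcripts in the results below was not tested, and in bulk roots fewer cells of a type cannot be told apart from less RNA per cell.

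No UGT or GST gene passed the genotype test as designed. In limma 0 of the 37 kept genes had a Benjamini-Hochberg adjusted p under 0.05, and the smallest was 0.153, for GSTF13. Among all kept probe sets 2.27% passed, 1.64% higher and 0.63% lower in nlp7-1, so few calls would come from the background share either. At an unadjusted p under 0.05 there were 6 of the 37 genes, or 16.2%, 1 of them higher and 5 lower in nlp7-1, against a background of 13.2% (7.5% higher and 5.71% lower). Samples of the genotypes did not overlap in 17 of the 37 genes, or 45.9%, against a background of 44.1%. Of these, 6 were higher in nlp7-1 (16.2%, background 23.2%) and 11 were lower (29.7%, background 20.9%). Both overall shares lie near the background and are no result about these families.

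The interval of each gene gives the range of differences that the fit allows for that gene, without adjustment for the number of genes. Log2 changes, as nlp7-1 minus wild type, ran from -0.51 for UGT87A2 to 0.58 for GSTF13. In 36 of the 37 genes the 95% interval of the limma fit lay wholly within a 2-fold difference either way. The exception was GSTU20, whose interval reached 1.03 on the log2 scale. Over all 13648 kept probe sets the same held for 12625. The median log2 change of all 56 genes was -0.09, with 23 kept genes below 0 and 14 above, and the median over all 22746 probe sets was -0.01.

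**Figure D1:**
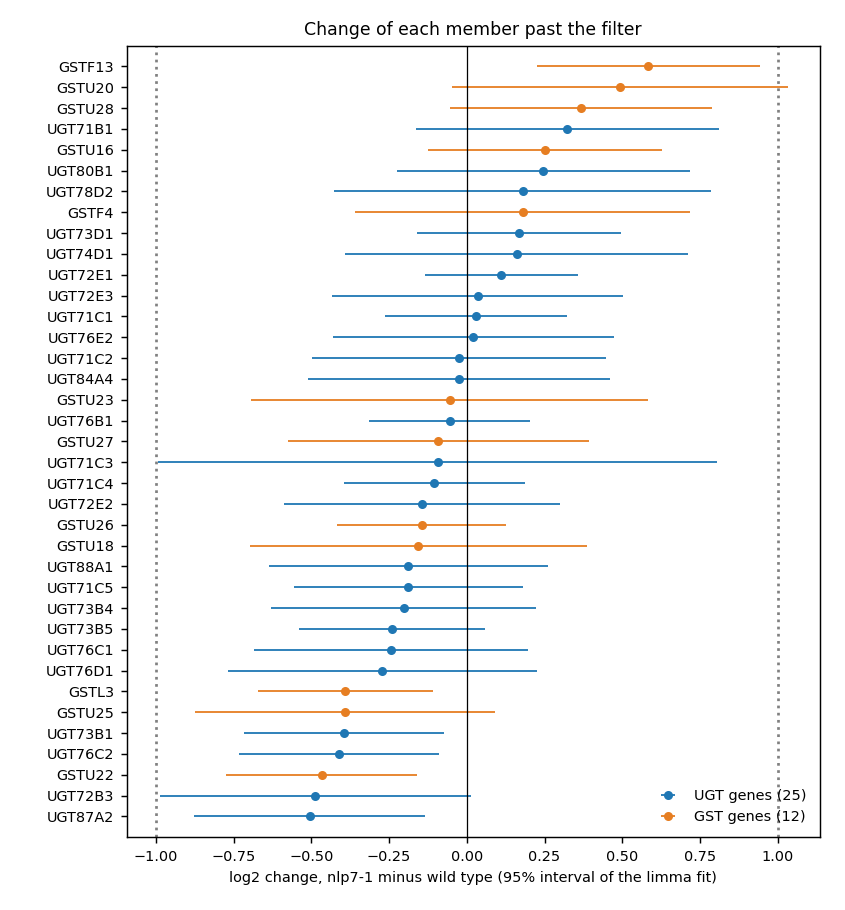
Log2 change of each of the 37 genes past the filter (points) with the 95% interval of the limma fit (bars). Blue marks UGT genes, orange GST genes, and dotted lines mark a 2-fold difference. The points run from -0.51 (UGT87A2) to 0.58 (GSTF13), and only the interval of GSTU20 crosses a dotted line.

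Among GST genes, the phi gene GSTF13 had the smallest p of all members. The signals of GSTF13 (AT3G62760) were 117 and 102 in wild type against 174 and 154 in nlp7-1. Both mutant samples lay above both wild-type samples, with a log2 change of 0.58 ± 0.15 (SE; limma adjusted p = 0.153). The other phi gene, GSTF4 (AT1G02950), had 106 and 72.1 in wild type against 106 and 93.2 in nlp7-1, where the genotypes overlapped. The lambda gene GSTL3 (AT5G02790) had 484 and 527 in wild type against 377 and 393 in nlp7-1. In GSTL3 the mutant samples were both lower and the samples within each genotype lay close together, with a log2 change of -0.39 ± 0.12 (SE; limma adjusted p = 0.217).

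The log2 changes of the kept tau genes had both signs, and none of these genes passed the test. GSTU22 (AT1G78340) had signals of 2953 and 2530 in wild type against 2156 and 1813 in nlp7-1. Both mutant samples were lower, by a log2 change of -0.47 ± 0.13 (SE; limma adjusted p = 0.174). GSTU20 (AT1G78370), whose product binds the jasmonate-conjugating enzyme JAR1, had 121 and 81.3 in wild type against 127 and 154 in nlp7-1. Here the mutant samples were both higher (log2 change 0.49 ± 0.22, limma adjusted p = 0.421), with the lowest mutant sample only just above the highest wild-type sample. GSTU25 (AT1G17180), known for conjugation of the explosive TNT, had 3068 and 2211 in wild type against 2312 and 1703 in nlp7-1. The genotypes overlapped in GSTU25, and its log2 change was -0.39 ± 0.20 (SE; limma adjusted p = 0.474).

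A further pair of tau genes had higher signals in both mutant samples. GSTU28 (AT1G53680) had 468 and 353 in wild type against 574 and 479 in nlp7-1, and GSTU16 (AT1G59700) had 86.2 and 83.4 against 106 and 96.5. Their log2 changes were 0.37 ± 0.17 and 0.25 ± 0.16 (SE), and neither passed (limma adjusted p = 0.439 and 0.565). The remaining kept tau genes, GSTU18, GSTU23, GSTU26 and GSTU27, had log2 changes from -0.16 to -0.06, and in GSTU26 both mutant samples were lower, 1058 and 1192 against 1288 and 1198. GSTU15 and GSTU21 lay below the filter, with signals of 15.8 to 32.9 and of 36.9 to 50.8.

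**Figure D2:**
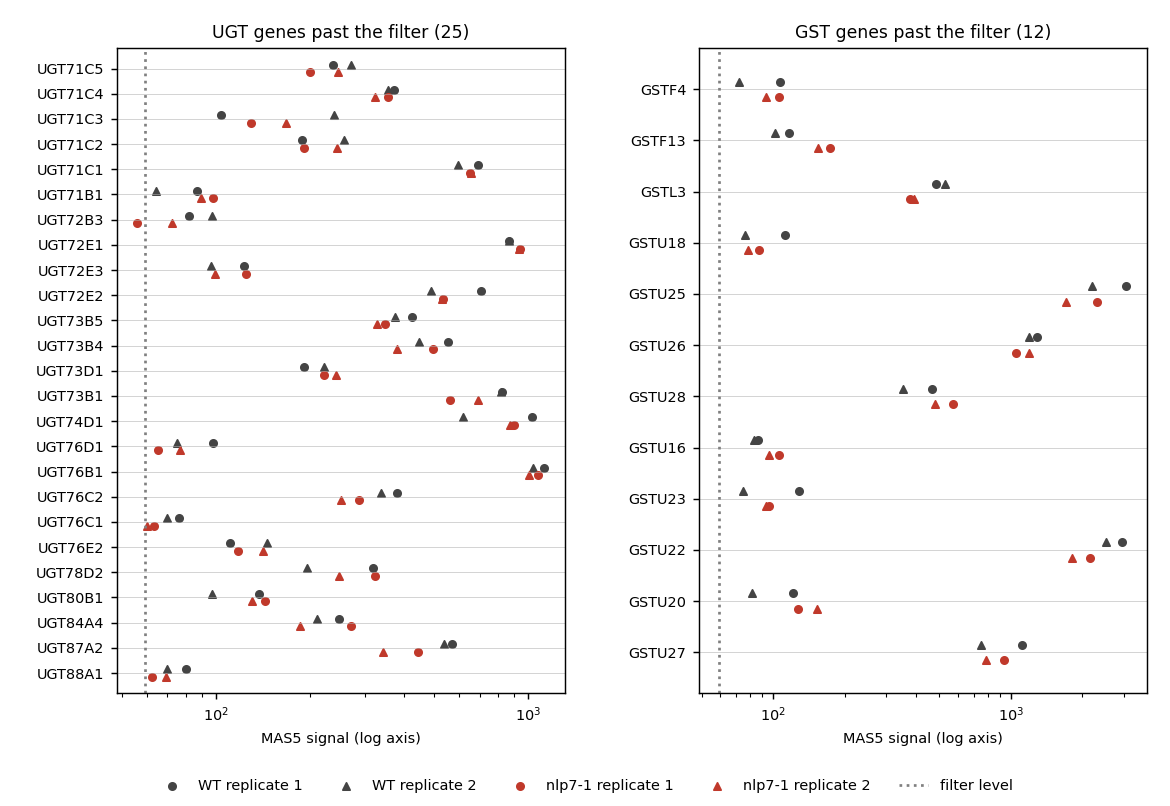
MAS5 signal (log axis) of each gene past the filter in each of the 4 samples, with UGT genes at left and GST genes at right. Black marks wild type and red nlp7-1, circles replicate 1 and triangles replicate 2, and signals of different genes are not comparable because each probe set binds with its own strength. In GSTU22 and GSTL3 the red points lie left of the black ones, and in GSTF13 they lie right.

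Wild-type samples differed more from each other in GST genes than in the array as a whole. Wild type replicate 1 had the higher signal in 11 of the 12 kept GST genes (91.7%) and in 18 of the 25 kept UGT genes (72%), against 51.3% of all kept probe sets. In the mutant, replicate 1 had the higher signal in 9 of the 12 GST genes (75%) and 15 of the 25 UGT genes (60%), against 49.3% of all kept probe sets. The exception among GST genes in wild type was GSTL3. The median size of the log2 difference between the wild-type samples was 0.44 in GST genes, 0.23 in UGT genes and 0.17 over all kept probe sets. Between the mutant samples it was 0.18, 0.19 and 0.13. GSTU23 was the farthest apart among GST genes, with 129 and 74.9 in wild type against 96.1 and 93.2 in nlp7-1. Its mutant samples lay between the wild-type samples, as they did in GSTU27 with 1114 and 751 in wild type against 936 and 787 in nlp7-1.

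The direction of the GST genes as a group depended on single samples. Their median log2 change was -0.07 with all samples, 0.21 when wild type replicate 1 was left out and -0.23 when replicate 2 was. Leaving out nlp7-1 replicate 1 also turned the sign, to 0.0087, and leaving out nlp7-1 replicate 2 gave -0.05. For the UGT genes the median was -0.10, and leaving out 1 sample gave -0.18 to -0.08. The difference between the UGT and GST medians was smaller than most of these shifts, and no difference between the families was tested.

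**Figure D3:**
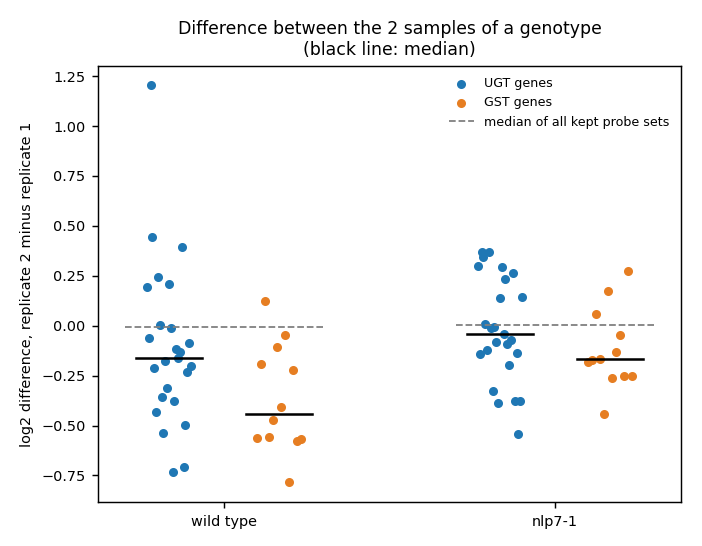
Log2 difference between the 2 samples of each genotype, replicate 2 minus replicate 1, for each UGT gene (blue) and GST gene (orange) past the filter. Black lines are medians and dashed lines the median of all kept probe sets. In wild type the GST median is -0.44 and the UGT median -0.16, and in nlp7-1 they are -0.17 and -0.04.

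Among UGT genes the smallest p belonged to UGT87A2. UGT87A2 (AT2G30140), which acts in flowering time, had signals of 570 and 537 in wild type against 444 and 342 in nlp7-1. Both mutant samples were lower, 1.42-fold on average, with a log2 change of -0.51 ± 0.15 (SE; limma adjusted p = 0.225). It was the only gene of its family with a named probe set. UGT88A1 (AT3G16520), also alone in its family, had 80.4 and 69.9 in wild type against 62.6 and 69.2 in nlp7-1 (log2 change -0.19 ± 0.19).

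UGT enzymes of family 76 include those that inactivate cytokinins by N-glucosylation, UGT76C1 and UGT76C2. UGT76C2 (AT5G05860) had signals of 380 and 339 in wild type against 289 and 252 in nlp7-1. Its neighbour UGT76C1 (AT5G05870) had 76.4 and 69.8 in wild type against 63.2 and 60.1 in nlp7-1. In both genes the 2 mutant samples were below the 2 wild-type samples. Their log2 changes were -0.41 ± 0.13 and -0.24 ± 0.18 (SE), and neither passed in limma (adjusted p = 0.250 and 0.636). UGT76B1 (AT3G11340), which glucosylates isoleucic acid, salicylic acid and N-hydroxypipecolic acid in immunity, had 1129 and 1042 in wild type against 1077 and 1010 in nlp7-1. The genotypes overlapped there, and the 95% interval of its log2 change ran from -0.31 to 0.20. UGT76D1 and UGT76E2 had log2 changes of -0.27 and 0.02, and UGT76E1, UGT76E11 and UGT76E12 lay below the filter with signals between 7.5 and 30.7.

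Family 73 holds genes that respond to pathogens and oxidative stress, among them UGT73B5 and UGT73B4. UGT73B1 (AT4G34138) had signals of 827 and 819 in wild type against 565 and 693 in nlp7-1. The wild-type samples of UGT73B1 nearly coincided and both mutant samples lay below them (log2 change -0.40 ± 0.13, limma adjusted p = 0.273). UGT73B5 (AT2G15480) had 424 and 376 in wild type against 347 and 329 in nlp7-1, also without overlap, and a log2 change of -0.24 ± 0.12 (SE; limma adjusted p = 0.481). Its neighbour UGT73B4 overlapped between genotypes, at -0.20 ± 0.18, and UGT73D1 had 0.17 ± 0.14. A probe set that names both UGT73B2 and UGT73B3, and so is outside the rule, had 1698 and 1798 in wild type against 1750 and 1614 in nlp7-1. UGT73C1, UGT73C2 and UGT73C7 lay below the filter, with signals of at most 46.2.

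Family 72 acts on monolignols and related phenylpropanoids. UGT72E1 (AT3G50740), which glucosylates coniferyl and sinapyl aldehyde, had 868 and 869 in wild type against 941 and 935 in nlp7-1. It had the smallest standard error of the UGT genes, and its 95% interval on the log2 scale ran from -0.13 to 0.36. UGT72E2 (AT5G66690) and UGT72E3 (AT5G26310), which glucosylate the monolignol alcohols, had log2 changes of -0.14 ± 0.18 and 0.03 ± 0.19 (SE). UGT72B3 (AT1G01420) had 81.9 and 97.2 in wild type against 56.0 and 72.3 in nlp7-1. Both mutant samples were lower, and 1 of them lay below the filter level (log2 change -0.49 ± 0.21, limma adjusted p = 0.391). UGT72B1, a relative that detoxifies chlorinated anilines and phenols, is annotated under another symbol and so is outside the rule, with 1043 and 719 in wild type against 852 and 730 in nlp7-1.

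Genes of hormone glucosylation in the other families did not pass the test or lay below the filter. UGT71C5 (AT1G07240), which makes the glucose ester of abscisic acid, had 237 and 271 in wild type against 200 and 247 in nlp7-1 (log2 change -0.19 ± 0.15). UGT71B6 (AT3G21780), also active on abscisic acid, had signals from 15.0 to 16.8 and was below the filter. UGT74D1 (AT2G31750), which glucosylates auxins, had 1028 and 619 in wild type against 904 and 878 in nlp7-1. Its mutant samples lay between 2 wild-type samples that were far apart. UGT74F1 (AT2G43840), a salicylic acid glucosyltransferase, had 40.8 and 31.8 in wild type against 55.5 and 50.1 in nlp7-1, all below the filter level. UGT84B1 (AT2G23260), active on auxin, had signals from 1.9 to 16.3 with no order between the genotypes.

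In the remaining family 71 genes, UGT71B1 (AT3G21750) had 86.9 and 64.4 in wild type against 97.7 and 89.7 in nlp7-1. Both mutant samples were just above the higher wild-type sample (log2 change 0.32 ± 0.20, limma adjusted p = 0.568). UGT71C1, UGT71C2, UGT71C3 and UGT71C4 had log2 changes from -0.10 to 0.03. UGT71C3 had the widest interval of all UGT genes, since its wild-type samples had signals of 104 and 239. UGT71B5 and UGT71B8 lay below the filter, with signals from 23.9 to 34.9.

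Of the members that act in flavonoid, sterol and hydroxycinnamate glycosylation, 3 were past the filter. UGT78D2 (AT5G17050), the flavonoid 3-O-glucosyltransferase, had 320 and 196 in wild type against 323 and 249 in nlp7-1. UGT78D1 and UGT78D3, which add rhamnose and arabinose to flavonols, had signals of at most 14.2 and were not tested, although both mutant samples of UGT78D1 were below both wild-type samples. UGT80B1 (AT1G43620), a sterol glucosyltransferase, had 137 and 97.4 in wild type against 144 and 131 in nlp7-1. UGT80A2, of the same family, is annotated under another symbol and so is outside the rule. It was past the filter, with 215 and 195 in wild type against 214 and 235 in nlp7-1. UGT84A4 (AT4G15500), of the group that makes glucose esters of hydroxycinnamates, had 248 and 211 in wild type against 271 and 186 in nlp7-1. In the 3 kept members UGT78D2, UGT80B1 and UGT84A4 the genotypes overlapped, with log2 changes of 0.18 ± 0.25, 0.25 ± 0.20 and -0.03 ± 0.20 (SE). UGT84A3 had 32.6 and 38.1 in wild type against 19.4 and 26.5 in nlp7-1, without overlap but below the filter and so not tested. UGT84A1 (30.9 to 55.2), UGT84B2 (1.5 to 5.8) and UGT85A4 (50.2 to 62.9) were also below the filter on average.

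**Figure D4:**
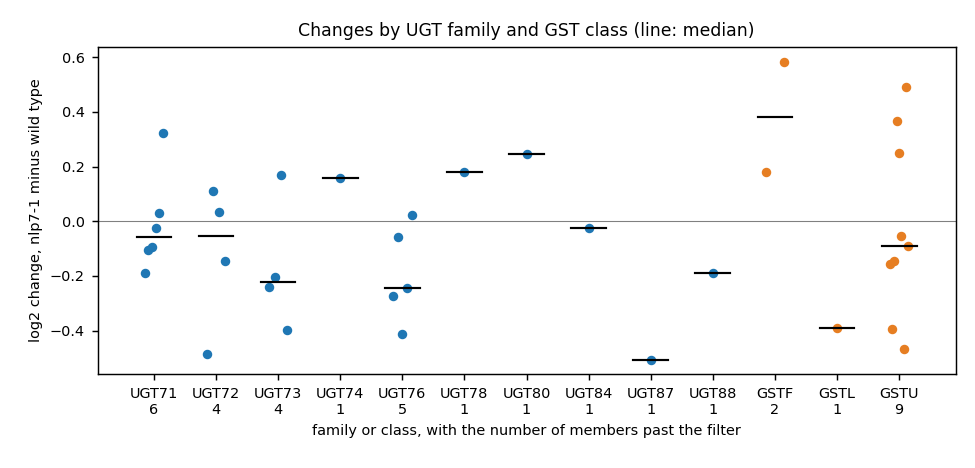
Log2 change of each gene past the filter, grouped by UGT family number (blue) and GST class (orange), with the number of kept genes under each name and the median as a line. Families 73 and 76 have medians of -0.22 and -0.24, families 71 and 72 medians of -0.06 and -0.05, and the tau class spreads from -0.47 to 0.49.

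By family, the medians of kept genes were -0.24 in family 76 (5 genes), -0.22 in family 73 (4 genes), -0.06 in family 71 (6 genes) and -0.05 in family 72 (4 genes). The tau class had -0.09 over 9 genes. In families 73 and 76, 3 of 4 and 4 of 5 kept genes were below 0, and no member of either passed the test. The median over all kept probe sets was 0.0002. The families were not tested against each other.

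Many of these genes stand next to each other in the genome. In the order of protein-coding genes, 33 of the 56 lay within 3 places of another member, in 14 groups. Of the 6 groups with at least 2 kept genes, 4 had changes of one sign and 2 had both signs. Such small groups can share a sign without any link between the genes, since 23 of the 37 kept members were below 0. A link between neighbours was not tested. The 3 genes UGT71C3, UGT71C4 and UGT71C5 were all below 0, as were the pairs GSTU25 and GSTU26, UGT73B4 and UGT73B5, and UGT76C1 and UGT76C2. In the group of GSTU20 to GSTU23 on chromosome 1, GSTU22 and GSTU20 had log2 changes of opposite sign, -0.47 and 0.49. They lay only 2 places from each other, and in each the genotypes did not overlap. Neither gene passed in limma (adjusted p = 0.174 and 0.421), and 44.1% of all kept probe sets also had no overlap. The interval of the limma fit for GSTU20, from -0.05 to 1.03, included 0. Neighbouring members are similar in sequence, and whether their probe sets bind each other's transcripts was not tested.

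The stretch of chromosome 1 left out by the rule was defined in an earlier analysis of these data by its higher signals in nlp7-1, so leaving it out takes away members with such values. It holds 5 UGT genes and no GST gene with a matching symbol. UGT85A2 (AT1G22360) had 837 and 911 in wild type against 1600 and 1785 in nlp7-1, and UGT74B1 (AT1G24100), of glucosinolate synthesis, had 506 and 484 against 759 and 695. UGT85A3, UGT85A5 and UGT85A7 lay below the filter, and in UGT85A3 and UGT85A7 both mutant samples were lower, 26.5 and 15.1 against 35.2 and 36.5, and 48.6 and 39.95 against 61.0 and 61.8. The members nearest to the stretch on either side were GSTU26, with the values above, and UGT78D1, with 14.2 and 7.3 in wild type against 3.6 and 5.4 in nlp7-1. With these 5 genes included, 1 of 39 kept genes passed, UGT85A2, against a background of 2.27% of all kept probe sets. Since the stretch was chosen by its higher signals in these data, this pass is no result about the UGT genes.

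Few other genes of these pathways had a probe set that the annotation names for them alone. The annotation names no gene for 8730 probe sets and several for 503, so the arrays may measure other genes of these lists. Of 20 genes of the xenobiotic and oxylipin response, 3 had a named probe set, and all 3 were below 0. In limma 0 of them passed (background 2.27%), and 1 had an unadjusted p under 0.05 (background 13.2%). AT2G04070, a MATE-family efflux carrier gene, had 126 and 101 in wild type against 73.2 and 64.5 in nlp7-1 (log2 change -0.72 ± 0.19, adjusted p = 0.156). Its relative AT2G04050 and the alkenal reductase gene AER overlapped between genotypes, with -0.60 ± 0.33 and -0.41 ± 0.22 (SE). Of 24 genes of glutathione synthesis and use, the 2 with a named probe set were the glutathione reductases GR1 and GR (AT3G54660), at 0.02 ± 0.19 and -0.02 ± 0.11. USP, of UDP-sugar supply, was the only 1 of 28 with a named probe set and had -0.01 ± 0.14. In the flavonoid list 2 of 11 genes had a named probe set, both below the filter, and 0 of the 15 ABCC conjugate transporters had one.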

How the data were processed

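The deposited table holds 1 MAS5 intensity per probe set for each of the 4 ATH1 arrays, made by the authors with MAS5, per the submitters' processing notes whose version is not stated there. Each array had a mean of 250.0 once the top and bottom 2% of signals were trimmed. Of 22810 probe sets, 64 controls were left out, and the platform annotation names 1 gene for 13513 of the rest. Loci and gene order came from the RefSeq table of TAIR10.1, which places all 56 members and gives them the same symbols. Signals entered the fit as log2 values without a pseudocount. The genotype test was limma 3.58.1 (R 4.3.3), with lmFit and a trended eBayes prior. It was two-sided, and p-values were adjusted by Benjamini-Hochberg over all 13648 kept probe sets. Figures used matplotlib 3.10.9.

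Members, gene lists and rules were chosen with earlier results of these data known. The naming rule took genes passing the test, then the 14 smallest p, then the smallest p of each family, then genes of known substrate. Other members are named to account for all 56. Alternatives were other filters, a pseudocount of 32, quantile normalization, median centring, other variance priors, the replicate number as a block, each sample left out and the chromosome 1 stretch left out of the fit.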

Additional observations from a re-analysis of the deposited data

How the results depend on the processing

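The count of members passing in limma was 0 in the fit as designed. It stayed 0 under other filters, a pseudocount of 32, quantile normalization, median centring, either other variance prior and the stretch left out of the fit. It was also 0 with each sample left out (0 to 0), but the spread then comes from the other genotype alone, so this says nothing about stability. It was 1 when the 5 genes of the stretch were added, chosen after the data were seen. With the replicate number as a block, 7 members passed: GSTF13 higher, and GSTL3, GSTU22, GSTU25, UGT73B1, UGT76C2 and UGT87A2 lower. That is 18.9% of the 37 kept members (16.2% lower), against 9.45% of all kept probe sets (4.32% lower). The labels do not say that the numbers pair samples, and there are only 2 pairs, whose replicate differences correlated at 0.44 over kept probe sets. Over all probe sets the count was 310, and 1290 with the replicate block, 116 without a trend in the variance prior, 105 without the stretch, and 16 to 761 with a sample left out. The median log2 change ran from -0.20 to -0.02 over all members and from -0.23 to 0.21 over GST genes with a sample left out; the other alternatives moved the 3 medians by less than the spread between replicates. Of 24 named genes past the filter, 17 kept their sign with any sample left out. The other 7 ran from -0.41 to 0.12 (UGT72E2), -0.14 to 0.21 (UGT72E3), -0.21 to 0.53 (UGT74D1), -0.11 to 0.0022 (UGT76B1), -0.17 to 0.53 (UGT78D2), -0.00098 to 0.49 (UGT80B1) and -0.30 to 0.25 (UGT84A4). In all of the 17 but GSTU25 and UGT71C5 the genotypes did not overlap, and there leaving out 1 sample cannot turn the sign. The naming rule also took the 14 smallest p, so the count of 17 says nothing about stability. Averaging probe sets changed nothing, since each member has 1. Membership by RefSeq symbol could change nothing either, since it gives the same 56 genes. Low signal limits 19 members, which were not tested.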
